A study of Mus musculus with 6 samples.

Results

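Interferon-stimulated genes and genes of class I antigen processing were examined in the livers of mice with a hepatocyte deletion of Surf4, a cargo receptor for export from the endoplasmic reticulum. The members are 36 genes chosen by symbol from what their products are known to do. They were found among 35540 gene symbols, and all 36 were among the 14189 that reached the minimum set for testing, a mean level of 0.1 TPM (a transcript's share of the library, corrected for its length and scaled to a total of 1000000). The genes fall into 8 roles, which are 6 transcription factors and cofactors, 4 sensors of viral nucleic acid, 2 genes of the ISG15 system, 3 IFIT genes, 5 oligoadenylate synthetases, 7 other antiviral genes, 6 guanylate-binding proteins and immunity-related GTPases, and 3 genes of the immunoproteasome and peptide transport. By mean level, 10 members were at 10 TPM or more, 23 were between 1 and 10 TPM, and 3 were under 1 TPM.

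Bulk liver RNA was sequenced from 6 mice on a C57BL/6J background, with 1 library per mouse and 3 mice per genotype. All 6 carried the Surf4 fl/fl genotype, in which exon 2 of both alleles is flanked by loxP sites. The Alb-Cre+ mice also carried a Cre transgene driven by the Albumin promoter, which acts in hepatocytes, so that the other cells of the liver keep an intact gene. The Alb-Cre- mice were littermate controls with the same floxed alleles and no Cre. Replicate 2 of either genotype was female and the other 4 mice were male. All were kept on 5L0D chow, and the methods state an overnight fast before blood and tissue were collected. The age of the sequenced mice is not given in the sources used here. Surf4 was at 59.0, 71.8 and 54.3 TPM in the Alb-Cre+ mice and at 92.5, 94.5 and 92.5 TPM in the Alb-Cre- mice, summed over all of its transcripts, including any that lack exon 2. The 3 Alb-Cre+ mice were thus below the 3 controls (log2 difference -0.60 ± 0.13 SE, 95% confidence interval -0.92 to -0.29, limma adjusted p = 0.9999). Alb, the hepatocyte's main secreted protein, ranged from 38059 to 55647 TPM over the 6 mice. TPM keep no read numbers, so the depth of each library is not known from the values used here, and the number of mice limits the precision.

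As background, cells that meet a virus secrete type I interferons, which act through a receptor of IFNAR1 and IFNAR2 and through JAK kinases. A complex that holds STAT2 and IRF9 then binds an interferon-stimulated response element before its target genes, while interferon gamma acts through another element. The targets block viral RNA and protein synthesis, attack the vacuoles of intracellular pathogens, and equip the proteasome and the peptide transporter that load class I molecules. Healthy liver holds a basal level of these transcripts in hepatocytes, in its resident macrophages (Kupffer cells) and in its endothelium.

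Promoter sequences are shown for the ubiquitin-like modifier Isg15, for Ifit1, for Rsad2 and Bst2, whose values did not overlap between genotypes, and for the immunoproteasome subunit Psmb9, whose window is nearly that of Tap1 on the other strand. They come from RefSeq on GRCm38.p6, run 5′ to 3′ on the gene's own strand, and hold the 250 bases before and the 50 bases after its start. Capitals mark the core of the interferon-stimulated response element (ISRE), which is GAAA, any 2 bases and GAAA again. It was searched on both strands, so that it also appears as TTTC, any 2 bases and TTTC, and overlapping matches run together.
Isg15, chr4:156200769-156201068, minus strand: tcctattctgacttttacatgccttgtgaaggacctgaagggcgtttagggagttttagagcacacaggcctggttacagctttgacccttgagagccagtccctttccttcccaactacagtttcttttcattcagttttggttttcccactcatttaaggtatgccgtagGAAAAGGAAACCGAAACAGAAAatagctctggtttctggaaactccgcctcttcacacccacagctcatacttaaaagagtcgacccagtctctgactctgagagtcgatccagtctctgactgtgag
Ifit1, chr19:34640639-34640938, plus strand: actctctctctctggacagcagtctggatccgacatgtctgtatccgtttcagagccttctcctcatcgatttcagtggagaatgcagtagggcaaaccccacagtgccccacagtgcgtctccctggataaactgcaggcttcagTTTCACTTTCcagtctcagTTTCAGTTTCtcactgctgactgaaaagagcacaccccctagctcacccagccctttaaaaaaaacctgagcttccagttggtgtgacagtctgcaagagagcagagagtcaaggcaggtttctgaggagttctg
Rsad2, chr12:26456403-26456702, minus strand: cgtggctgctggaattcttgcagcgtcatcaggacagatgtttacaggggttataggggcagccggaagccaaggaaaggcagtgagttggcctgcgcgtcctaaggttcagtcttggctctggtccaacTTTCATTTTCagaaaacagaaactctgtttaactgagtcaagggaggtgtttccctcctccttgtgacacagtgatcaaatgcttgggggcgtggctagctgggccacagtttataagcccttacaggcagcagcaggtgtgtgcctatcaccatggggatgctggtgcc
Bst2, chr8:71537423-71537722, minus strand: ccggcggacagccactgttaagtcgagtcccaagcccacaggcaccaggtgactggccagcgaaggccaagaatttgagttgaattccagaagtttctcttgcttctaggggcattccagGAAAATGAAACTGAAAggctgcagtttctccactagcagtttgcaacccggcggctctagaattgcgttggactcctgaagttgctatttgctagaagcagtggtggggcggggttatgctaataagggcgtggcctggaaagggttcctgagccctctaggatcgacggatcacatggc
Psmb9, chr17:34187281-34187580, minus strand: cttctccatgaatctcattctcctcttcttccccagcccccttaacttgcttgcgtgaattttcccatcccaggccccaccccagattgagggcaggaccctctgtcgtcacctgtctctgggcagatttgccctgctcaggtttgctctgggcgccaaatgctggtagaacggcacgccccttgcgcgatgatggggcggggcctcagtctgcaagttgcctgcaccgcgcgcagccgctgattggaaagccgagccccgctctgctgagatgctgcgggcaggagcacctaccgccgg

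A promoter was given for 28 of the 36 members, and 15 of these (53.6%) held the ISRE core, against 1079 of 27025 genes (3.99%) in the whole table. At 2 or more places the letters were found in 7 members (25%) and in 72 genes (0.266%). Matches that overlap, as in Isg15, Bst2, Gbp3, Oas1a and Irgm1, were counted here as separate places. Isg15 had 3 overlapping matches that began at -78, -72 and -66, counted from the first transcribed base as +1. In Ifit1 they began at -104 and -85, in Bst2 at -130 and -124, and in Rsad2 at -120. For Bst2 the bases just after the RefSeq start were not found in its GENCODE transcripts, so its positions hold for the RefSeq start only. The window of Psmb9 held none, nor did those of Tap1 and Psmb8, whereas all 5 guanylate-binding protein and immunity-related GTPase genes with a promoter held at least 1. The windows of Tap1 and Psmb9 share 275 bases, and their starts lie 226 bases apart. The core of the interferon gamma element, TTCNNNGAA, was present in 7 members (25%) and in 2582 genes (9.55%), and in Bst2 it began at -136 and overlapped the first ISRE core. A match says only that the letters are there.

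The first comparison asked whether the members' levels differed between genotypes. No member reached an adjusted p of 0.01 in limma's test over all genes, where 0 of 14189 genes did (0% of genes tested), and the smallest adjusted p was 1 among the members and 0.456 among all genes. The paper compared the same genotypes by DESeq2 and reported genes in both directions at a false discovery rate under 0.01. The 0 calls here, which left out even Surf4, thus do not show that no gene in the liver changed. At an unadjusted p under 0.05, 1 member was lower in Alb-Cre+ mice (0.958% of all genes tested) and 0 were higher (0.803% of all genes). The 36 differences ran from -0.76 for Ifi44 to 0.38 for Iigp1 on the log2 scale, with 27 below and 9 above 0; with a pseudocount of 1 TPM in place of 0.1, Ifi44 was at -0.33 and Rsad2 was the lowest, at -0.57. Their median was -0.145, and that of all genes tested was -0.00168 with 50.4% below 0. In 2 members every Alb-Cre+ mouse was below every control (2.71% of all genes), and in 0 was every one above (2.18%). An exact permutation test of 3 mice against 3 cannot give a p under 0.1. In bulk liver, fewer cells of a type and less RNA per cell cannot be told apart.

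**Figure D1:**
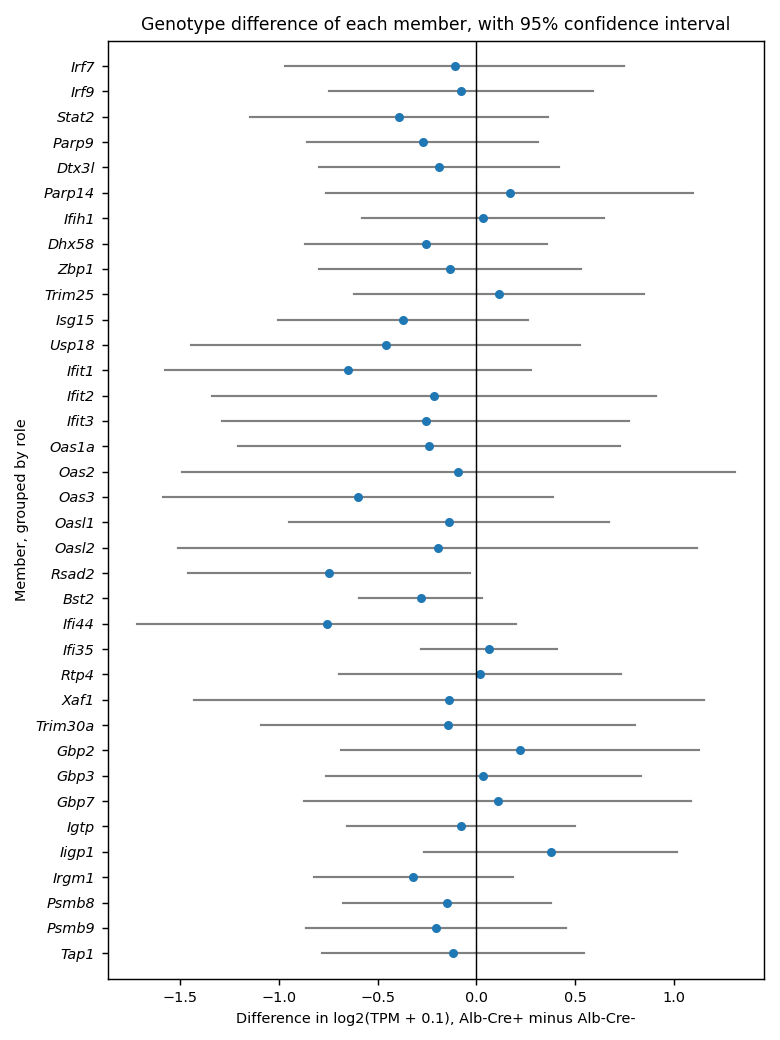
Difference in log2(TPM + 0.1) between the 3 Alb-Cre+ and the 3 Alb-Cre- mice for each of the 36 members, grouped by role; points are the limma estimate, lines its 95% confidence interval, and the vertical line is 0. The interval of Rsad2 is the only 1 of the 36 that lies wholly below 0, from -1.46 to -0.034.

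Rsad2 encodes viperin, an enzyme that makes a chain-terminating nucleotide against viral RNA polymerases, and it was the member with the smallest p. It lies at chr12:26442746-26456452 on the minus strand of GRCm38, and its promoter is printed above. Rsad2 was at 2.58, 3.25 and 1.55 TPM in the Alb-Cre+ mice and at 4.53, 4.02 and 3.58 TPM in the Alb-Cre- mice. All 3 Alb-Cre+ mice were below all 3 controls, with means of 2.46 ± 0.85 and 4.04 ± 0.48 TPM (SD, n = 3 each). The difference was -0.75 ± 0.30 SE on the log2 scale (95% confidence interval -1.46 to -0.034, limma adjusted p = 1). Without Alb-Cre+ replicate 1, Alb-Cre+ replicate 3, or any 1 of the controls, its unadjusted p was no longer under 0.05, while the groups stayed apart. The difference was between -0.66 and -0.97 with any mouse left out other than Alb-Cre+ replicate 3, without which it was -0.46.

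Bst2 encodes tetherin, which holds budding virus particles at the cell surface, and it had the highest mean of the 36 members. Its gene lies at chr8:71534255-71537456 on the minus strand. Levels of Bst2 were 132, 127 and 149 TPM in the Alb-Cre+ mice and 161, 150.2 and 187 TPM in the Alb-Cre- mice. The highest Alb-Cre+ mouse was just below the lowest control. On the log2 scale, the difference was -0.28 ± 0.13 SE (95% confidence interval -0.59 to 0.029), and after median-of-ratios scaling the groups overlapped.

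When mice with the same replicate number were compared as pairs, 8 members were lower in the Alb-Cre+ mouse of all 3 pairs (Parp9, Dhx58, Usp18, Oas3, Rsad2, Bst2, Ifi44 and Psmb9) and 0 were higher in all 3. Over all genes tested, 12.4% were lower and 11.5% higher in all 3. With the replicate number as a block, 4 members had an unadjusted limma p under 0.05, all lower in Alb-Cre+ mice (2.42% of all genes). They were Rsad2, Bst2, Ifi44 and the ISG15 protease Usp18. The smallest adjusted p of a member in that fit was 0.847. The labels do not state the pairing, which was taken from correlations within these same values. The unadjusted p-values of the blocked limma fit therefore serve as description only. The pairs did not move alike. In pair 1, which is male, all 36 members were lower in the Alb-Cre+ mouse, with a median difference of -0.537. In pair 2, which is female, 11 were lower and the median was 0.245, and in pair 3, also male, 25 were lower and the median was -0.199. Over all genes tested, the median log2 deviation from the 6-mouse mean was -0.0267 in Alb-Cre+ and -0.00603 in Alb-Cre- replicate 1. It was 0.251 and 0.0987 in the mice of pair 2, and -0.222 and -0.0889 in those of pair 3, in the same order. Part of the members' difference in pairs 2 and 3 was thus shared with all genes. No gene showed an interaction of genotype and sex at an adjusted p under 0.05 in a fit with 1 female per genotype, and the smallest adjusted p of a member for it was 0.775.

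Differences between mice of the same genotype were larger than those between genotypes for most members. In 30 of 36 the genotype difference was smaller than the SD within genotypes, as it was for 84% of all genes. That SD had a median of 0.452 among the members and 0.327 among all genes tested on the log2 scale. From the lowest to the highest mouse, the median span was 1.21 for the members and 0.839 for all genes.

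Most members had their highest value in one of the same 2 mice. Alb-Cre- replicate 1, a male control, held the highest value of 16 members (44.4%), against 11.1% of all genes tested, and the lowest value of none. Alb-Cre+ replicate 2, a female, also held the highest value of 16 members (44.4%), and of 45.8% of all genes. Of the remaining 4, Irf7, Usp18 and Oas3 were highest in the female control, and Bst2 in Alb-Cre- replicate 3. The lowest value belonged to Alb-Cre+ replicate 3 for 23 members (63.9%), against 42.9% of all genes, and to Alb-Cre- replicate 3 for 8 members (22.2%), against 21.2%. The median deviation of the members from their 6-mouse means was 0.379 in Alb-Cre- replicate 1, where that of all genes was -0.00603, and 0.353 in Alb-Cre+ replicate 2, where that of all genes was 0.251. It was -0.421 in Alb-Cre+ replicate 3, against -0.222 for all genes.

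**Figure D2:**
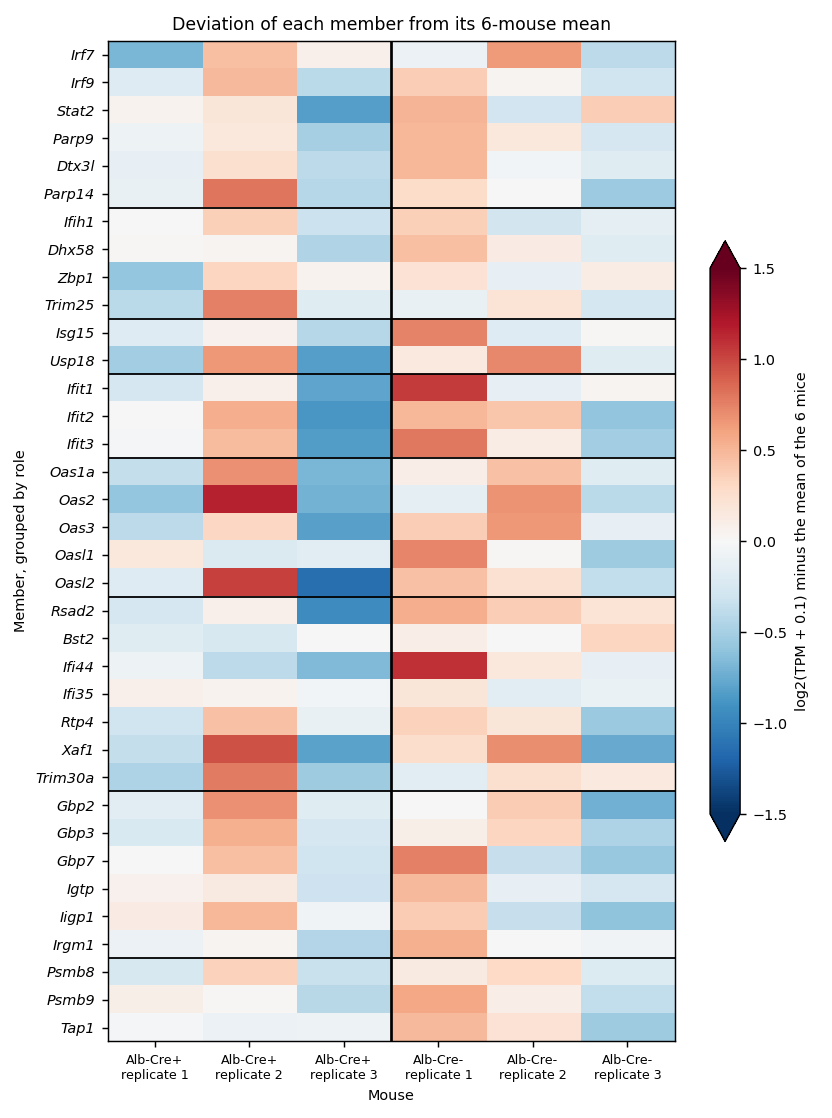
Each cell is the log2(TPM + 0.1) of a member (vertical axis, grouped by role) in a mouse (horizontal axis) minus the member's mean over the 6 mice; red is above and blue below that mean. The column of Alb-Cre- replicate 1 is mostly red (median 0.379) and that of Alb-Cre+ replicate 3 mostly blue (median -0.421).

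**Figure D3:**
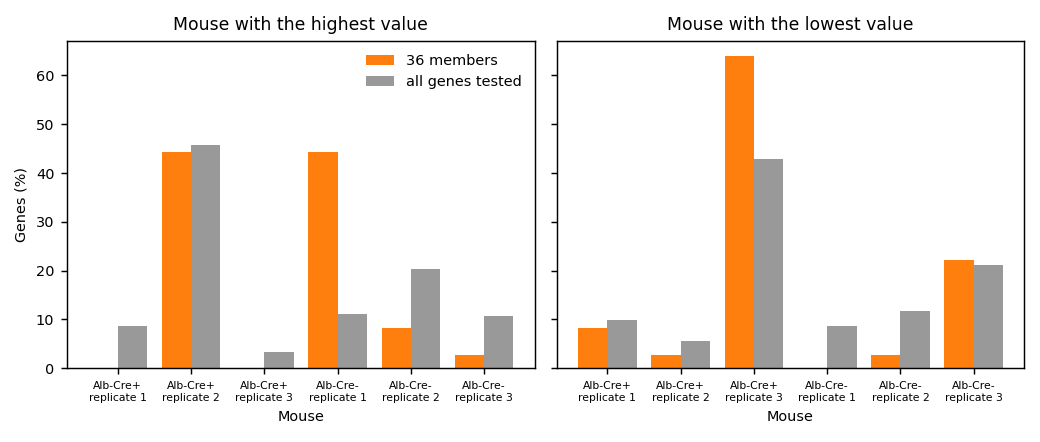
Percent of genes with their highest (left) or lowest (right) value in each mouse, for the 36 members (orange) and all 14189 genes tested (grey). The bars of Alb-Cre- replicate 1 stand at 44.4% of members and 11.1% of all genes on the left.

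Leaving out single mice moved the members as a group, though not to the same degree for each mouse. Without Alb-Cre- replicate 1, 20 members were lower and 16 higher in Alb-Cre+ mice, with a median difference of -0.0316, against -0.0089 for all genes. Without Alb-Cre+ replicate 2, 34 were lower and 2 higher, and the median was -0.356, that of all genes being -0.124. Without Alb-Cre- replicate 3, 33 were lower and 3 higher, with a median of -0.33, against -0.0458 for all genes. Without Alb-Cre+ replicate 3, there were 18 on each side and the median was 0.014, against 0.112 for all genes. The median moved less without Alb-Cre+ replicate 1, at -0.134 with 21 lower, against 0.0139 for all genes. The same held without Alb-Cre- replicate 2, at -0.115 with 27 lower, against 0.0487 for all genes. Among the 4 male mice alone, an alternative chosen after the values were seen, 34 members were lower, 13 of them with every Alb-Cre+ male below every control male, where 33% of all genes did not overlap in either direction. The members' median among the males was -0.342, against -0.0818 for all genes.

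The transcription factors and cofactors head the response. Irf7, the factor that amplifies type I interferon production, was at 8.39, 18.6 and 14.3 TPM in the Alb-Cre+ mice and at 12.8, 21.3 and 10.3 TPM in the Alb-Cre- mice. The females of each genotype were the highest, and the genotypes overlapped among the males as well. Over all mice, the log2 difference for Irf7 was -0.11 ± 0.36 SE. Irf9, the DNA-binding subunit of the complex, was at 7.72, 12.5 and 6.68 TPM and 11.5, 9.13 and 7.22 TPM in the same order. Its lowest mouse was Alb-Cre+ replicate 3 and its highest Alb-Cre+ replicate 2. Stat2, a signal transducer that IRF9 brings to DNA, was at 23.6, 25.7 and 12.8 TPM in Alb-Cre+ and 32.3, 18.5 and 29.4 TPM in Alb-Cre- mice. Alb-Cre+ replicate 3 was the lowest for Stat2, and the female control lay below both other controls. The difference for Stat2 was -0.39 ± 0.32 SE (95% confidence interval -1.15 to 0.37). Parp9, its E3 ligase partner Dtx3l and the mono-ADP-ribosyltransferase Parp14 differed by -0.27, -0.19 and 0.17 on the log2 scale, each with a 95% confidence interval that includes 0. Exons of Parp9 and Dtx3l overlap by 458 bases on opposite strands, so that without strand their reads cannot be told apart there; whether the library kept strand is not given in the sources used here.

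Among the sensors, Ifih1 encodes MDA5, which binds long double-stranded RNA. Ifih1 was at 5.59, 7.16 and 4.44 TPM in the Alb-Cre+ mice and at 7.16, 4.56 and 5.06 TPM in the Alb-Cre- mice. The ranges were nearly the same, and the difference was 0.035 ± 0.26 SE. Zbp1, a sensor of Z-form nucleic acid that starts necroptosis, was at 2.34, 4.46 and 3.66 TPM and 4.14, 3.23 and 3.81 TPM in the same order. Alb-Cre+ replicate 1 was the lowest and the other 5 mice lay between 3.23 and 4.46 TPM. Dhx58, a relative of MDA5, and Trim25, the ligase that activates RIG-I signalling, differed by -0.25 ± 0.26 and 0.11 ± 0.31 SE.

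Isg15 is attached to target proteins during the response, and Usp18 removes it and damps the receptor. Isg15 was at 11.1, 13.3 and 9.45 TPM in the Alb-Cre+ mice and at 21.3, 11.1 and 12.9 TPM in the Alb-Cre- mice. A single control, replicate 1, stood above the other 5 mice, and the remaining 2 controls lay within the Alb-Cre+ range. Isg15 differed by -0.37 ± 0.27 SE. Usp18 was at 5.49, 12.5 and 4.44 TPM and 8.79, 13.1 and 6.96 TPM in the same order. Both females were above all 4 males, and in every pair the Alb-Cre+ mouse was the lower (-0.67, -0.074 and -0.64 on the log2 scale in pairs 1 to 3). Without the block, the difference was -0.46 ± 0.42 SE.

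The IFIT proteins bind viral RNA that lacks the host's cap marks. Ifit1 was at 1.82, 2.31 and 1.22 TPM in the Alb-Cre+ mice and at 4.63, 2.01 and 2.26 TPM in the Alb-Cre- mice. Alb-Cre- replicate 1 was the highest and Alb-Cre+ replicate 3 the lowest, a 3.80-fold span, while the other 4 mice lay between 1.82 and 2.31 TPM. The difference for Ifit1 was -0.65 ± 0.39 SE (95% confidence interval -1.57 to 0.28). Ifit3 was at 4.39, 6.20 and 2.45 TPM and 7.75, 4.83 and 3.08 TPM in the same order. It had the same highest and lowest mice, with a difference of -0.26 ± 0.44 SE, but 61.8% of its stretches of 31 bases also occur in Ifit3b, so its level is uncertain. Ifit2 differed by -0.22 ± 0.48 SE.

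The oligoadenylate synthetases include the enzymes that make the messenger that switches on RNase L, and Oasl1 and Oasl2 belong to their branch of OAS-like proteins. Oas2 was at 0.11, 0.58 and 0.087 TPM in the Alb-Cre+ mice and at 0.18, 0.39 and 0.13 TPM in the Alb-Cre- mice. Both females were above all males, at levels near the lower limit of testing, and the difference was -0.091 ± 0.59 SE. Oasl2 was at 0.90, 2.20 and 0.42 TPM and 1.45, 1.23 and 0.78 TPM in the same order. For Oasl2 the 3 controls lay inside the range of the Alb-Cre+ mice, which spanned 5.24-fold. Oas1a, Oas3 and Oasl1 differed by -0.24, -0.60 and -0.14 on the log2 scale, that of Oas3 falling to -0.15 with a pseudocount of 1 TPM, and 68.8% of the 31-base stretches of Oas1a occur in other genes, nearly all of them in Oas1g.

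The remaining antiviral genes, beside Rsad2 and Bst2, spanned a wide range of levels. Ifi44, a cytosolic interferon-induced protein at under 1 TPM, had the lowest difference of the 36 members with a pseudocount of 0.1 TPM but not with 1 TPM. Ifi44 was at 0.48, 0.37 and 0.29 TPM in the Alb-Cre+ mice and at 1.21, 0.59 and 0.46 TPM in the Alb-Cre- mice. Only Alb-Cre+ replicate 1 reached into the control range, which Alb-Cre- replicate 1 led, and the difference was -0.76 ± 0.41 SE. Ifi35, a partner of the interferon-induced protein NMI, had the smallest span of the 36, with 17.1, 16.8 and 15.7 TPM in Alb-Cre+ and 18.3, 14.4 and 15.0 TPM in Alb-Cre- mice, a 1.28-fold span. Rtp4, a chaperone of receptors on their way to the surface, Xaf1, a pro-apoptotic antagonist of XIAP, and Trim30a differed by 0.018, -0.14 and -0.14 on the log2 scale, and of these 3 both females were above all males for Xaf1 and Trim30a.

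Guanylate-binding proteins and immunity-related GTPases, which disrupt the vacuoles of intracellular pathogens, were the role in which more members were higher than lower in Alb-Cre+ mice (4 of 6, median 0.07). Iigp1 was at 83.0, 108 and 73.9 TPM in the Alb-Cre+ mice and at 99.7, 60.2 and 50.2 TPM in the Alb-Cre- mice. Its controls ran from the lowest mouse of all to the second highest, and the difference was 0.38 ± 0.27 SE. Gbp2 was at 1.97, 3.64 and 1.95 TPM and 2.24, 2.94 and 1.32 TPM in Alb-Cre+ and Alb-Cre- mice, and Gbp3 at 1.63, 2.84 and 1.60 TPM and 2.05, 2.43 and 1.37 TPM. Both females were above all males for Gbp2 and Gbp3, with differences of 0.22 ± 0.38 and 0.036 ± 0.34 SE. Igtp was at 8.86, 9.30 and 6.79 TPM in Alb-Cre+ and 11.9, 7.78 and 7.10 TPM in Alb-Cre- mice. Irgm1, a regulator of the other GTPases, was at 15.5, 16.9 and 12.1 TPM and 23.8, 16.4 and 15.8 TPM. In Igtp and Irgm1, as in Gbp7, Alb-Cre- replicate 1 was the highest mouse, and the differences were -0.078 ± 0.24 and -0.32 ± 0.21 SE. Gbp7 differed by 0.11 ± 0.42 SE.

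**Figure D4:**
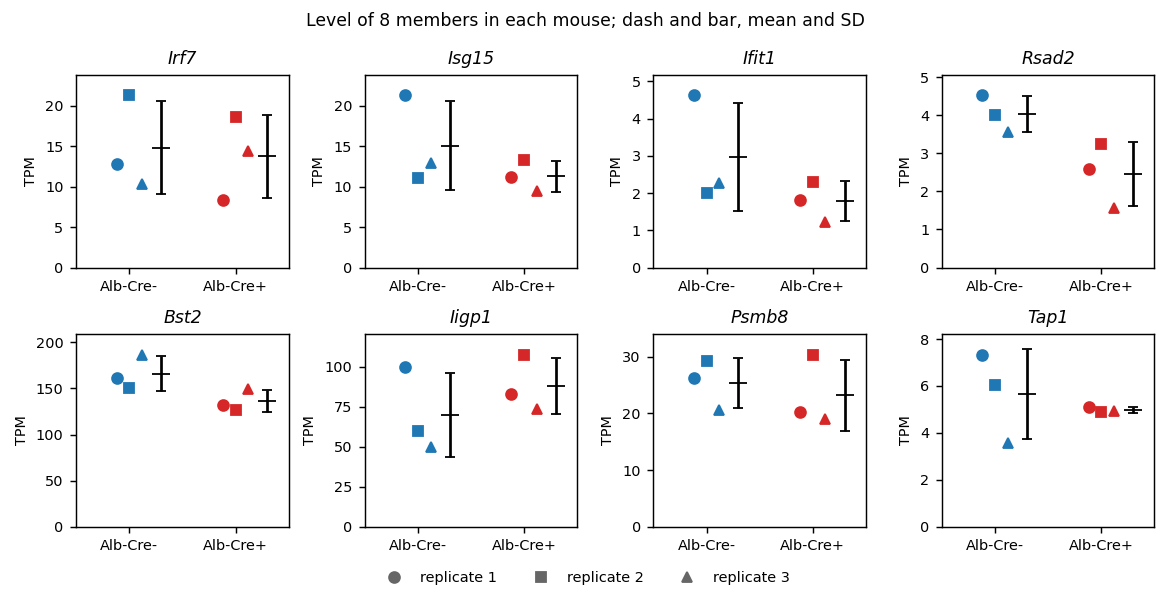
TPM of 8 members in each mouse (Alb-Cre- in blue, Alb-Cre+ in red; circles, squares and triangles are replicates 1, 2 and 3, and squares are female), with the mean and SD of each genotype as a black dash and bar. The genotypes do not overlap for Rsad2 and Bst2, and for Isg15 and Ifit1 the top point is Alb-Cre- replicate 1 (21.3 and 4.63 TPM).

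In antigen processing, Psmb8 and Psmb9 replace the constitutive catalytic subunits Psmb5 and Psmb6 in the immunoproteasome, and Tap1 is a subunit of the transporter that carries peptides into the endoplasmic reticulum. Psmb8 was at 20.2, 30.4 and 18.9 TPM in the Alb-Cre+ mice and at 26.1, 29.3 and 20.7 TPM in the Alb-Cre- mice. Both females were above all males, and the difference was -0.15 ± 0.22 SE. Psmb9 was at 7.56, 7.20 and 5.29 TPM and 10.6, 7.61 and 5.45 TPM in the same order. It was lower in the Alb-Cre+ mouse of each pair, though by only 0.04 in pair 3, and differed by -0.20 ± 0.28 SE. Tap1 was at 5.12, 4.88 and 4.94 TPM in Alb-Cre+ and 7.34, 6.06 and 3.56 TPM in Alb-Cre- mice. The 3 Alb-Cre+ mice had an SD of 0.12 TPM and lay inside the control range, and the difference was -0.12 ± 0.28 SE. As a share of the subunit it replaces, Psmb8 was at 9.12, 14.1 and 9.98% of Psmb5 in Alb-Cre+ and 12.2, 12.4 and 10.7% in Alb-Cre- mice. Psmb9 was at 3.29, 3.53 and 2.66% of Psmb6 in Alb-Cre+ and 4.42, 3.19 and 2.46% in Alb-Cre- mice. Psmb10, the third immune subunit, was at 11.3, 18.8 and 10.2% of Psmb7 in Alb-Cre+ and 10.7, 8.01 and 11.3% in Alb-Cre- mice, so that for all 3 shares the genotypes overlapped. Exons of Psmb9 and Tap1 overlap by 212 bases on opposite strands, and those of Psmb8 and Gm20496 by 498 bases.

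The other genes of the pathway, from lists compiled by hand, held 0 genes with an adjusted p under 0.01 or, without the block, an unadjusted p under 0.05. When the replicate number was a block, 1 of 56 other interferon-stimulated genes was lower in Alb-Cre+ mice at an unadjusted limma p under 0.05 (2.42% of all genes). It was Tor3a, an ATPase of the endoplasmic reticulum (-0.67 on the log2 scale). The class I transactivator Nlrc5 (0.96), 1 of 18 other class I genes, and the chemokine Ccl5 (0.77), 1 of 6, were higher (2.28% of all genes). The remaining pathway lists held 0 such genes. Of 9 type I interferon genes in the table, 8 were listed at 0 in all 6 mice, and Ifng, the type II interferon, was at 0.0867 TPM or less in each. Of 56 other interferon-stimulated genes tested, 32 were lower and 24 higher (median -0.04). Among 14 other guanylate-binding and immunity-related GTPase genes there were 6 lower and 8 higher, and among 18 other class I genes 9 of each. B2m, the light chain of class I molecules, was the highest of the latter at 2066, 2498 and 2030.2 TPM in Alb-Cre+ and 2233, 2573 and 2157 TPM in Alb-Cre- mice. All 6 interferon-induced chemokine genes were higher in mean in Alb-Cre+ mice (median 0.48), with summed levels of 13.19, 25.85 and 10.95 TPM in Alb-Cre+ and 10.5, 13.5 and 5.56 TPM in Alb-Cre- mice. So were 6 of 7 monocyte and neutrophil markers (median 0.41), whose sum was likewise highest in Alb-Cre+ replicate 2. Under the block, 3 of these 7 were higher at an unadjusted limma p under 0.05 (2.28% of all genes), and without it 0 were. The genotypes overlapped for all 7 markers, and their part in the chemokine levels was not tested. All 7 constitutive proteasome beta subunits were lower in mean (median -0.11).

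The share of genes with the highest value in Alb-Cre- replicate 1 differed between these lists. It was 6 of 14 (42.9%) for the other guanylate-binding and immunity-related GTPase genes and 13 of 56 (23.2%) for the other interferon-stimulated genes. For receptors, kinases and negative regulators it was 1 of 11 (9.09%), for nucleic acid sensors and adaptors 0 of 17, and for other class I genes 1 of 18 (5.56%). Members with the ISRE core in the promoter were highest in that mouse in 8 of 15 cases, and those without it in 6 of 13. Their median deviations there were 0.49 and 0.44 on the log2 scale. Since the pattern belongs to a single mouse, it has no replicate.

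In 10 of 36 members both females were above all 4 males, a smaller share than over all genes tested (36.6%), and in 0 were both below (5%). The 10 are Irf7, Trim25, Usp18, Oas1a, Oas2, Xaf1, Trim30a, Gbp2, Gbp3 and Psmb8. Both females were also above all males for all 10 Kupffer cell markers, all 7 monocyte and neutrophil markers, 7 of 11 T and NK cell markers, 2 of 4 B cell markers and 2 of 6 dendritic cell markers. The same held for 6 of 7 sinusoidal endothelial, 3 of 8 hepatocyte, and 3 of 9 stellate cell and cholangiocyte markers. The summed Kupffer markers were at 362.6, 901.5 and 250.1 TPM in Alb-Cre+ and at 364.1, 847 and 312.4 TPM in Alb-Cre- mice, and the summed monocyte and neutrophil markers at 44.7, 307.9 and 55.6 TPM and at 37.0, 152 and 25.5 TPM. In Alb-Cre- replicate 1, both sums were close to or below those of Alb-Cre+ replicate 1. The sums of hepatocyte, T and NK cell, B cell and dendritic cell markers were also below. Those of sinusoidal endothelium (157.4 against 146.1 TPM) and of stellate cells and cholangiocytes (152.1 against 136.8 TPM) were above. Among the 4 males, Alb-Cre- replicate 1 had the highest sum of Kupffer cell, sinusoidal endothelial, and stellate cell and cholangiocyte markers. For hepatocyte, monocyte and neutrophil, T and NK cell, B cell and dendritic cell markers, another male was higher. The part of any of these cells in the members' levels was not tested. Summed markers of sinusoidal endothelium ranged from 91.7 to 218 TPM, and those of stellate cells and cholangiocytes from 72.4 to 207 TPM, highest in a female in each case. T and NK cell, B cell and dendritic cell markers each summed to under 10 TPM in every mouse.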

How the data were processed

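Bulk liver RNA of 6 mice was measured, 3 per genotype. The authors deposited TPM per transcript and mouse, with a total of 1000000 per mouse. Per the labels the table comes from salmon; alignment by STAR and quantification by RSEM are what the methods give, with GRCm38 as the build, and no versions are given in the sources used here. TPM were summed per gene symbol over 116748 transcripts, and 163 transcripts without a symbol (0.0515 to 0.0887% of TPM) were left out. The authors' second table holds mean counts, fold changes and p-values of their DESeq2 comparison and was not used.

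Genes with a mean of 0.1 TPM or more were transformed to log2(TPM + 0.1). The genotypes were compared by limma (3.58.1, R 4.3.3) with no other factor, a trend on mean level and Benjamini-Hochberg adjustment over all genes; 0.01 was the threshold. Fold changes on this scale understate the change of low genes. Deviations from the genotype means correlated at 0.367, 0.588 and 0.37 between mice of the same replicate number and at -0.444 to 0.171 otherwise, so the numbers were taken to pair the mice and served as a block in a second fit; the labels do not state the pairing, and pair 2 shares its sex. The members, the lists and the alternatives were chosen with earlier results of these data known. Values in every mouse are given for a fixed set of 21 members, for the member with the highest mean, and for those with an unadjusted p under 0.05 or no overlap between genotypes; Ifi44 and Ifi35 were added after their values were seen. Other genes are named only when highest in their list, as proteasome partners or as overlapping genes, and not every such gene is given; Tor3a and Nlrc5 were added after their values were seen. The script was tested on simulated data. Gene positions are from GENCODE M21 on GRCm38, and shared sequence is the percent of 31-base stretches of a gene's transcripts found in another gene.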

Additional observations from a re-analysis of the deposited data

How the results depend on the processing

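No member passed an adjusted p of 0.01 under any alternative run. The number with an unadjusted p under 0.05, 1 as reported, was 4 with the replicate block, alone or with a pseudocount of 1 TPM or median-of-ratios scaling, and 2 with sex as a covariate. The same count over all genes was 250 of 14189 as reported, 666 with the block and 531 with sex. It ranged from 0 to 2 members when a mouse was left out and was 5 in the 4 male mice alone (522 of 13847 genes), a setting added after the data were seen. Members without overlap numbered 2 as reported, 2 to 10 when a mouse was left out (10 without Alb-Cre+ replicate 2, 8 without Alb-Cre- replicate 3 and 5 without Alb-Cre- replicate 1, where 20.4, 9.98 and 11.2% of all genes did not overlap in either direction), and 13 among males (33% of all genes). Fewer mice make separation easier by construction. The number of all genes called was 0 to 1 when a mouse was left out, the call being made without Alb-Cre+ replicate 1. The median of the members was -0.145 as reported, -0.109 with a pseudocount of 1 TPM, and -0.356 to 0.014 with a mouse left out. With a pseudocount of 1 TPM, the low genes Ifi44 and Oas3 went to -0.33 and -0.15. With 3 mice per genotype and the depth not known from TPM, small differences could not be told from the spread between mice.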
